A study of Mus musculus with 6 samples.

Results

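The fatty acid uptake and lipase genes compared here are Fabp4, Fabp5, Gpihbp1, Lpl, Lipg, Vldlr, Pparg, Acsl1, Acsl5 and Cpt1a, chosen by name and taken at every probe set that the platform table assigns to that gene alone. Of the 10 genes, 9 were measured, on 23 probe sets, out of 18193 genes with a probe set of their own, and Acsl1 was not analysed here. The RNA came from CD45-negative stromal cells of pooled lymph nodes (LN), skin-draining and mesenteric, of 6-week-old C57BL/6 mice with no treatment or altered allele named. It was measured on 6 Affymetrix arrays, 3 for double-positive (gp38+ CD31+) cells and 3 for CD31+ cells, numbered as biological replicates 1 to 3 in each group. The labels also call the double-positive arrays BEC (blood endothelial cells) and the CD31+ arrays LEC (lymphatic endothelial cells), which is the reverse of the gates in the study's methods, where LEC are gp38+ CD31+ and BEC are gp38neg CD31+. The gate word is used here to name the arrays, and differences are given as double positive minus CD31+, between the means of each group. The number of mice pooled for an array was not given in the sources used here.

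The markers went with the gate word and against the cell type word. Of 9 measured lymphatic endothelial markers, 6 were called higher in the double-positive arrays by limma at a false discovery rate of 5%. Of 9 blood endothelial markers, 7 were called lower. Over all genes, 1.06% were called higher and 0.225% lower. Per double-positive array the mean log2 value of the lymphatic list was 7.90 to 8.47, against 3.93 to 4.37 per CD31+ array. The probe set of Pecam1, the gene of CD31, was near the floor throughout, with 2.39 to 2.59 over the 6 arrays. All values are log2 RNA abundances after GCRMA normalization, with a floor at 2.39, and values of different probe sets are not compared with each other, because each has its own affinity. A log2 value of 5 or more was reached by 13.8% to 14.7% of the probe sets on double-positive arrays and by 10.7% to 12.6% on CD31+ arrays. Centring each array on the median of its bright probe sets lowers every difference by 0.68, so a difference near that size depends on the scaling.

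Lipoprotein lipase, encoded by Lpl, is secreted by cells of the tissue and cuts triglycerides of circulating lipoproteins. GPIHBP1, a small membrane-anchored protein of capillary endothelium, carries the lipase to the vessel lumen and holds it there. The fatty acids that are set free are bound inside cells by fatty acid binding proteins, activated to acyl-CoA by synthetases such as ACSL1 and ACSL5, and taken into mitochondria through CPT1A. PPARγ, encoded by Pparg, is a nuclear receptor that responds to fatty acids and is known as a regulator of Fabp4, Lpl and Cd36 in adipocytes and macrophages.

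Pparg, Acsl5 and Vldlr are the measured members whose double-positive arrays all lay above the CD31+ arrays, and the bases just before their start sites are printed for that reason. Each line holds the last 30 bases before an annotated start on the plus strand, 5′ to 3′, from RefSeq on GRCm38.p6, with the letters AGGTCA in capitals where they occur on that strand. AGGTCA is the core of the element that PPAR and RXR dimers bind as a repeat. The lines are for Pparg at chr6:115361114-115361143, chr6:115362319-115362348 and chr6:115422036-115422065, for Acsl5 at chr19:55253339-55253368, and for Vldlr at chr19:27216454-27216483 and chr19:27216990-27217019.
Pparg, start 1: tcAGGTCAgagtcgccccgggccacgcggc
Pparg, start 2: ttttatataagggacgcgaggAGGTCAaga
Pparg, start 3: ttaaccaaccaatcttttgcaagacataga
Acsl5: tgctgaggtgtaagaggggtcacagaacac
Vldlr, start 1: ttattttagtcttgttctattacagaggac
Vldlr, start 2: ccccgtgagccccgggccaacgcgcggagc
The first base of AGGTCA lay 28 bases before the first start of Pparg and 9 bases before the second. On either strand of the full windows, 250 bases before to 50 after a start, AGGTCA was held by 16.3% of the 32851 windows of all genes and by 3 of the 7 windows of the members, those of the first and second start of Pparg and, on the minus strand, that of Cpt1a. The repeat AGGTCANAGGTCA was held by 0.0396% of the windows of all genes, on either strand, and by 0 of the 7 windows of the members. A match is only a run of letters, and the windows of Vldlr, Pparg, Acsl5 and Cpt1a are those that the table holds.

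At their brightest probe sets, Pparg, Acsl5 and Vldlr were higher in all double-positive arrays, and Gpihbp1 was lower in all of them. Fabp4, Fabp5, Lpl and Cpt1a overlapped between the groups. In centred arrays the differences of Pparg, Acsl5 and Vldlr fell to 1.58, 0.64 and 0.30. Over all probe sets, limma called 0 of the 9 genes higher and 0 lower at 5% FDR, beside 1.06% of all genes called higher and 0.225% called lower. Blocking on the replicate number again gave 0 and 0, beside 0.022% and 0%. At an unadjusted limma p under 0.05, 3 members were higher, beside 14.4% of all genes, and 1 was lower, beside 2.44%. At the brightest probe set of a gene, 3 of 9 members had all double-positive arrays above all CD31+ arrays, as did 16.9% of all genes, and 1 had them all below, as did 3.42%. Among the 6088 brighter probe sets, those at 5 or more on at least 3 arrays, these shares were 47.3% and 5.65%. The median difference of the 9 members was 0.36, against 0.00 over all genes and 0.73 over the genes with a mean of at least 5.

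**Figure D1:**
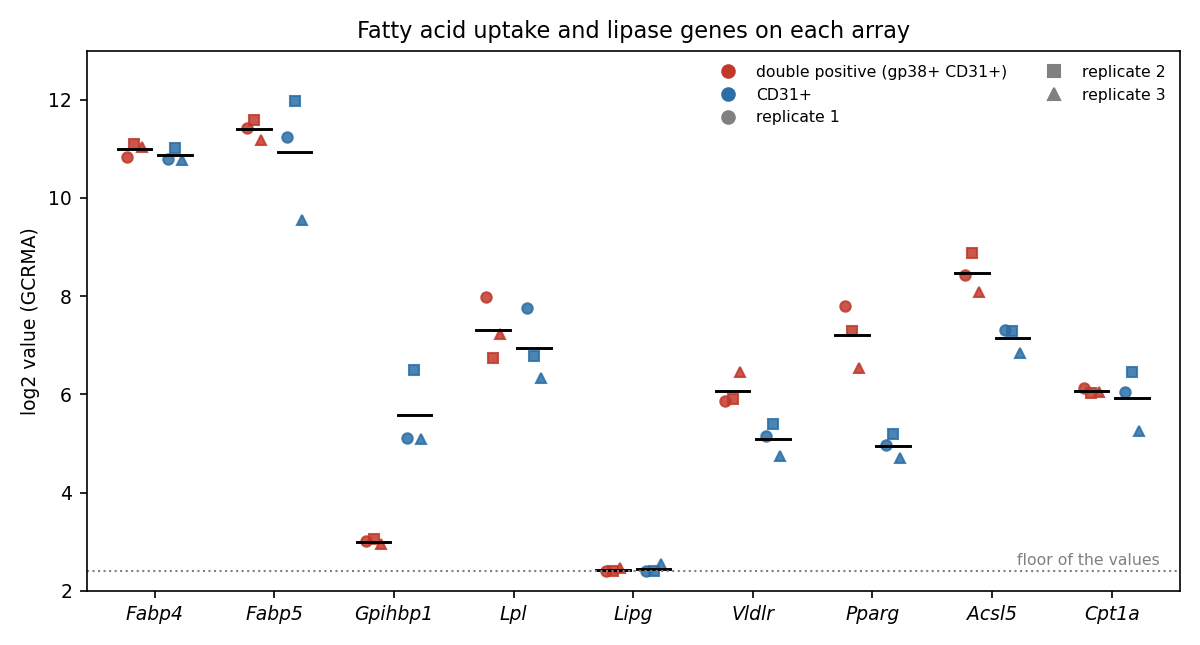
Log2 values (y axis) of the 9 measured genes at their brightest probe set, with a point per array, colour for the group, shape for the replicate number and a bar for the group mean. Pparg, Acsl5 and Vldlr lie higher in all double-positive arrays, Gpihbp1 lies lower in them, and Lipg lies at the floor of 2.39.

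In the lipase system of the vessel wall, Gpihbp1 had the largest difference of the measured members. Its only probe set read 3.01, 3.05 and 2.95 in double-positive replicates 1 to 3, against 5.12, 6.51 and 5.09 in CD31+ replicates 1 to 3. All double-positive arrays lay close together near the floor, and CD31+ replicate 2 stood above the other CD31+ arrays. The means were 3.00 ± 0.0515 (SD, n = 3) and 5.57 ± 0.811 (SD, n = 3), which differed by -2.57 (standard error 0.449, 95% interval -3.78 to -1.36). Because the double-positive values lie near the floor, no exact fold is given. The adjusted p was 0.149 from limma over all probe sets, and the gene passed without CD31+ replicate 2, at a difference of -2.10 (adjusted p = 0.0102 from limma). In a bulk sample, fewer cells that make a transcript and less of it per cell cannot be told apart.

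Lpl, whose product is the enzyme that GPIHBP1 carries, was measured in both groups with no separation. Its bright probe set read 7.97, 6.73 and 7.24 in the double-positive arrays and 7.76, 6.77 and 6.33 in the CD31+ arrays. Arrays of the same number lay close together for replicates 1 and 2, while replicate 3 was higher in the double-positive array. The difference was 0.36 (standard error 0.532, 95% interval -1.07 to 1.79, adjusted p = 0.801 from limma). This interval holds changes of more than 2-fold either way, but it does not take same-numbered arrays as pairs. Those pairs differed by 0.22, -0.04 and 0.91 (unadjusted p = 0.280 from limma with the replicate block, 0.530 without it). The second probe set of Lpl lay at 2.42 to 3.54 and differed by -0.06.

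Lipg encodes endothelial lipase, which acts mainly on phospholipids of high-density lipoprotein. Its 3 probe sets stayed between 2.39 and 2.55 on all 6 arrays, at or near the floor, with differences of -0.03, 0.00 and 0.00. No level of Lipg could therefore be read in either group.

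Vldlr encodes the very low density lipoprotein receptor, which takes up triglyceride-rich particles beside the lipase. Its bright probe set read 5.86, 5.91 and 6.45 in the double-positive arrays and 5.15, 5.40 and 4.73 in the CD31+ arrays. The groups did not overlap, and the means were 6.07 ± 0.326 (SD, n = 3) and 5.10 ± 0.335 (SD, n = 3). The difference was 0.98 (standard error 0.259, 95% interval 0.28 to 1.67, 1.97-fold), with an adjusted p of 0.320 from limma. The other 5 probe sets of Vldlr were dim, at 2.39 to 3.40 over single arrays, with differences of -0.23 to 0.30. The suffix of the bright probe set marks probes that can also match other transcripts, and the average over all 6 probe sets differed by only 0.25.

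Among the proteins that bind fatty acids inside the cell, Fabp4 and Fabp5 were bright on all 6 arrays. FABP4 is best known from adipocytes and macrophages and is also made by capillary endothelium, and FABP5 is known from epidermis and endothelium. The brightest probe set of Fabp4 read 10.84, 11.10 and 11.04 in the double-positive arrays and 10.80, 11.03 and 10.78 in the CD31+ arrays. The groups overlapped, and the difference of 0.12 (standard error 0.105, 95% interval -0.16 to 0.41, adjusted p = 0.659 from limma) leaves a ratio between 0.896 and 1.33. This was a narrow interval beside those of Lpl and Fabp5, but it leaves out the scaling, and in centred arrays the difference was -0.55. A second bright probe set read 9.53, 10.84 and 9.60 against 9.70, 9.66 and 9.55, where double-positive replicate 2 alone stood apart. It differed by 0.35 with a wider 95% interval of -0.75 to 1.45, and the remaining pair of probe sets was dim.

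Fabp5 read 11.43, 11.60 and 11.19 in the double-positive arrays and 11.24, 11.98 and 9.56 in the CD31+ arrays. CD31+ replicate 3 lay far below the other 5 arrays. The difference of 0.48 (standard error 0.696, 95% interval -1.39 to 2.35, adjusted p = 0.798 from limma) rested on that array, and without it the difference was -0.21. The other probe set of Fabp5 was dim and differed by -0.15. Of the protein-coding genes that RefSeq places between Fabp5 and Fabp4, Pmp2 read 2.55 to 2.73 and Fabp9 2.89 to 3.27 at their brightest probe sets, near the floor in both groups.

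Acsl5 encodes an acyl-CoA synthetase of mitochondria and endoplasmic reticulum that activates long-chain fatty acids. Its probe set read 8.44, 8.88 and 8.08 in the double-positive arrays and 7.30, 7.30 and 6.84 in the CD31+ arrays. Every double-positive array lay above every CD31+ array, with means of 8.47 ± 0.399 (SD, n = 3) and 7.15 ± 0.267 (SD, n = 3). The difference was 1.32 (standard error 0.266, 95% interval 0.60 to 2.03, 2.49-fold), with an adjusted p of 0.192 from limma. In centred arrays the difference was 0.64.

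Cpt1a encodes the carnitine palmitoyltransferase that commits long-chain fatty acids to mitochondrial oxidation. Its brightest probe set read 6.13, 6.03 and 6.05 in the double-positive arrays and 6.05, 6.45 and 5.25 in the CD31+ arrays. The double-positive arrays lay within the range of the CD31+ arrays, and the difference was 0.15 (standard error 0.337, 95% interval -0.75 to 1.06, adjusted p = 0.955 from limma). The other probe sets differed by -0.10 and -0.18, so the 3 probe sets of Cpt1a did not share a direction. All but the dimmest carry the suffix of probes that can also match other transcripts, as at Vldlr.

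Pparg, the regulator of the list, had the largest difference toward the double-positive arrays. Its only probe set read 7.81, 7.29 and 6.53 in double-positive replicates 1 to 3 and 4.96, 5.20 and 4.69 in CD31+ replicates 1 to 3. The lowest double-positive array was above the highest CD31+ array, and the same-numbered pairs differed by 2.85, 2.09 and 1.83. The means were 7.21 ± 0.643 (SD, n = 3) and 4.95 ± 0.253 (SD, n = 3), which differed by 2.26 (standard error 0.382, 95% interval 1.23 to 3.28), or 4.78-fold. The adjusted p was 0.141 from limma over all probe sets, and 266 of the 18193 genes had a difference at least as high. Leaving out any 1 array gave differences of 1.96 to 2.60, with adjusted p-values of 0.154 to 0.354 from limma.

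**Figure D2:**
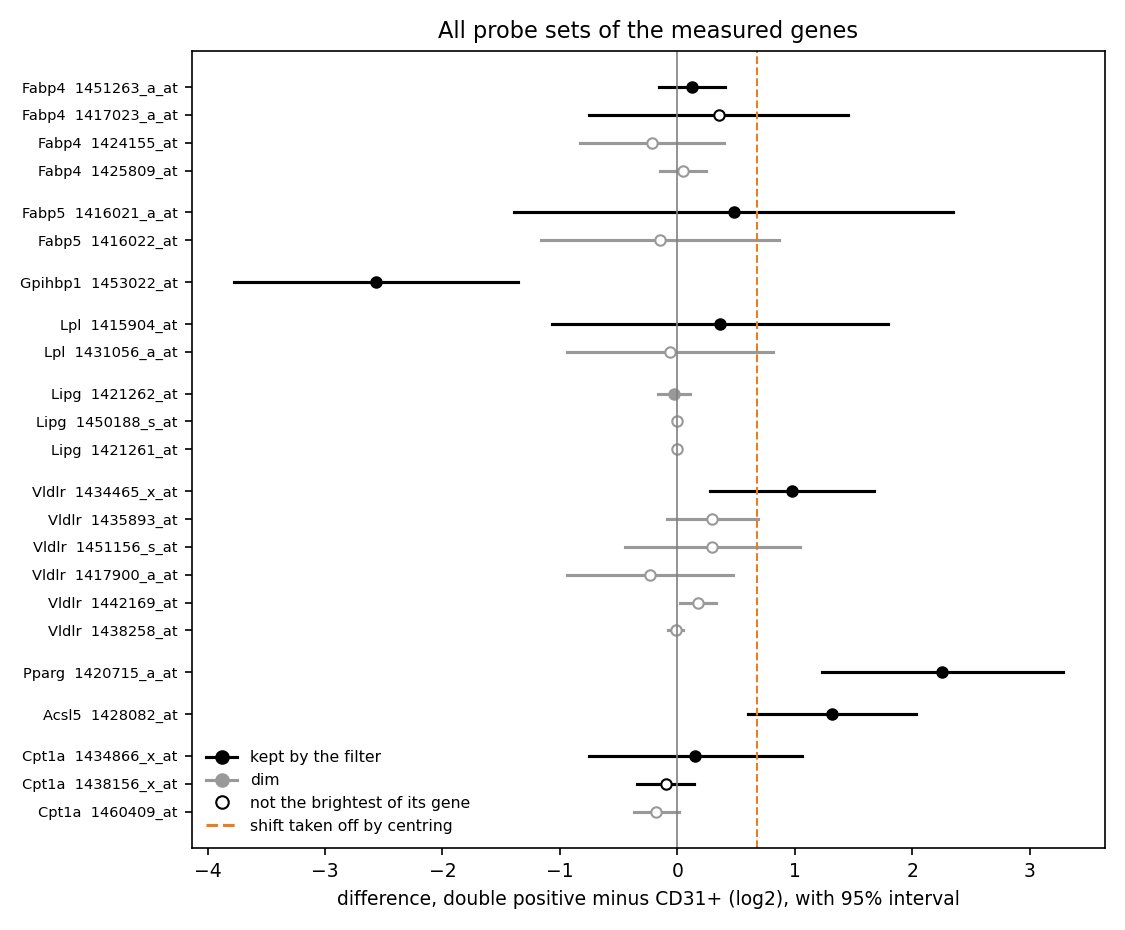
Difference of each of the 23 probe sets (x axis, log2, double positive minus CD31+) with its 95% interval from limma. Filled points mark the brightest probe set of a gene, grey marks dim probe sets, and the dashed line marks the shift of 0.68 that centring takes off. The interval of Pparg lies wholly above that line and that of Gpihbp1 wholly below 0.

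The calls for the members depended on which probe sets were tested together. With a filter that kept only these 6088 brighter probe sets, 8 of the 9 genes were tested, and Lipg was not. Of the 8, limma then called 3 higher (Pparg, adjusted p = 0.00233, Acsl5, 0.0134, and Vldlr, 0.0384), beside 36% of all genes kept, and 1 lower (Gpihbp1, 0.00188), beside 4.34%. Gpihbp1 was kept through its CD31+ arrays alone, so it had to differ to be tested there, and its calls with the filter are given as values and not as support. Acsl5 was above 5 on all 6 arrays. Among the CD31+ arrays, Pparg reached 5 in replicate 2 alone (5.20) and Vldlr in replicates 1 and 2 (5.15 and 5.40). Pparg and Vldlr were thus kept only with the help of their double-positive arrays, and their calls with the filter are likewise not given as support. With the filter and centred arrays, the calls were 1 higher (Pparg, difference 1.58, adjusted p = 0.00458 from limma), beside 13.9%, and 1 lower (Gpihbp1, difference -3.25, adjusted p = 9.15e-05 from limma), beside 10.3%. Acsl5 (adjusted p = 0.138) and Vldlr (adjusted p = 0.509) did not pass there in limma, with centred differences of 0.64 and 0.30. Centring also turned Fabp4, Fabp5, Lpl and Cpt1a to differences of -0.55, -0.20, -0.32 and -0.52, none of which passed with the filter. With the replicate block the calls were 3 higher and 1 lower after filtering, beside 49.2% and 5.25%, and 1 higher and 2 lower for the filter plus centring, beside 19.9% and 16.2%, the added gene being Cpt1a at its probe set of the second highest mean.

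**Figure D3:**
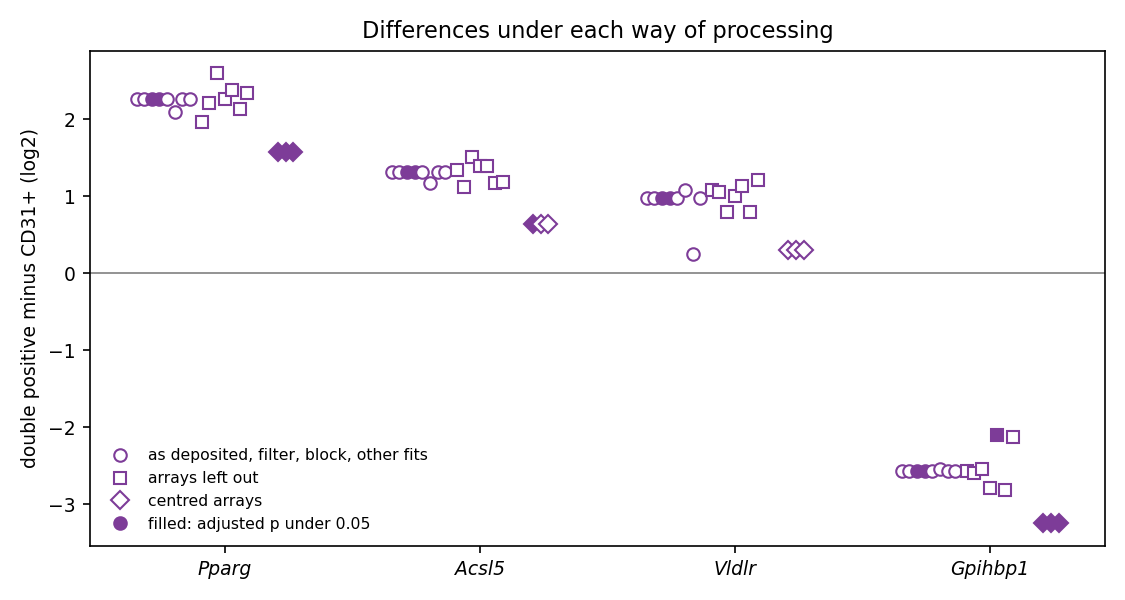
Differences (y axis, log2) of Pparg, Acsl5, Vldlr and Gpihbp1 under each way of processing, with circles for the arrays as deposited, squares for arrays left out, diamonds for centred arrays and filled symbols for an adjusted p under 0.05. All points keep their side of 0, and with the filter and centring the filled points are those of Pparg and of Gpihbp1. The filter kept Gpihbp1 through its CD31+ arrays alone, and Pparg only with the help of its double-positive arrays. Acsl5 is filled with centring and no filter, where 7.81% of all genes were called higher and 86% lower.

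The CD31+ arrays varied together over the members. CD31+ replicate 3 was the lowest CD31+ array for all 8 members above the floor, as it was for 66.8% of the probe sets kept by the filter. It also had the smallest share of probe sets at 5 or more, 10.7%. The part of this array's brightness in the members' differences was not tested beyond leaving it out, which turned Fabp5 and Cpt1a to -0.21 and -0.18.

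In the 7 lists of other genes of the pathway, 101 genes were measured. Of these, limma called 2 higher (Acadl and Dbi) at 5% FDR, beside 1.06% of all genes, and 0 lower, beside 0.225%. An unadjusted limma p under 0.05 was reached by 18 that were higher, beside 14.4% of all genes, and 3 that were lower, beside 2.44%. In the counts per list given next, calls at 5% FDR stand beside 1.06% and 0.225%. The unadjusted counts stand beside 14.4% and 2.44%. When the filter was applied, 12 of the 30 genes kept were called higher, beside 36% of all genes kept, and 1 lower, beside 4.34%. The filter with centring gave 8 higher, beside 13.9%, and 3 lower, beside 10.3%. With the replicate number as a block over all probe sets, 0 were called higher, beside 0.022% of all genes. At their brightest probe sets, 10 of 15 transporters and binding proteins and 8 of 12 lipase regulators lay under 3 on all 6 arrays. So did 6 of 11 receptors and apolipoproteins, 6 of 15 lipases and droplet genes and 4 of 13 PPAR partners. The same held for 5 of 13 synthetases and thioesterases and 3 of 22 oxidation genes, and the list medians include all of these.

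Among other fatty acid transporters and binding proteins, 1 of 15 measured genes was called higher and 0 lower, and the median difference was 0.01. Dbi, which encodes the acyl-CoA binding protein, rose at a dim probe set from 2.91 ± 0.0287 in the CD31+ arrays to 5.32 ± 0.0992 in the double-positive arrays (SD, n = 3 each; adjusted p = 0.00556 from limma, 0.109 with the replicate block). Its brightest probe set read 11.06, 10.52 and 10.76 against 8.45, 8.83 and 7.65, and differed by 2.47 (adjusted p = 0.108 from limma). All but the dim probe set of Dbi carry the suffix of probes that can also match other transcripts. Cd36, a fatty acid translocase and scavenger receptor, read 10.55, 9.92 and 9.26 in the double-positive arrays and 8.14, 7.77 and 6.91 in the CD31+ arrays. Its groups did not overlap, at a difference of 2.30 (standard error 0.498), with adjusted p-values from limma of 0.221 over all probe sets, 0.0046 after filtering and 0.00592 with centring added. Got2 and Slc27a4 differed by 0.63 and 0.32 with overlapping groups.

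Among regulators of lipoprotein lipase, 0 of 12 measured genes were called either way over all probe sets, with 2 higher at an unadjusted p under 0.05 and a median of 0.02. Angptl4, which encodes an inhibitor of the lipase and is a known PPAR target, read 7.10, 6.15 and 6.34 in the double-positive arrays against 4.77, 5.48 and 4.08. The difference was 1.76 (adjusted p from limma 0.337, and 0.0135 with the filter), and a second, dimmer probe set differed by 2.56 (adjusted p = 0.0639). Among its CD31+ arrays, the brighter probe set reached 5 in replicate 2 alone, so the filter kept it with the help of the double-positive arrays. Sdc1, a heparan sulfate proteoglycan, read 8.62, 8.84 and 8.93 against 5.57, 5.41 and 3.87 at its bright probe set, and differed by 3.85 (adjusted p = 0.0924 from limma), while its other 3 probe sets were dim and differed by -0.02 to 0.72. As at Vldlr, the suffix of this bright probe set marks probes that can also match other transcripts. Apoc2 and Lmf1 lay near the floor and differed by -0.26 and 0.03.

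Among other lipoprotein receptors and apolipoproteins, 0 of 11 measured genes were called either way. The unadjusted p was under 0.05 for 2 higher and 1 lower, and the median was -0.03. Scarb1, which encodes the high-density lipoprotein receptor SR-BI, went the way of Gpihbp1. It read 8.27, 8.54 and 7.74 in the double-positive arrays and 11.94, 13.35 and 11.39 in the CD31+ arrays. The difference was -4.05 (standard error 0.603, 16.5-fold more in the CD31+ arrays), and its other probe sets differed by -4.07 and -3.94. All but the dimmest probe set of Scarb1 carry the suffix of probes that can also match other transcripts. The dimmest read 2.83, 2.83 and 2.54 in the double-positive arrays, near the floor. At the brightest probe set of Scarb1, the adjusted p from limma was 0.109 over all probe sets, 0.00048 after filtering and 2.15e-05 with centring added. Stab1, a scavenger receptor of sinusoidal and lymphatic endothelium, read 9.30, 9.84 and 9.58 against 6.88, 7.32 and 6.53, and differed by 2.66 (adjusted p = 0.0521 from limma). Lrpap1, a chaperone of receptors of the LDL receptor family, differed by 2.07 at its brightest probe set and by 0.35 to 1.20 at the others. Acvrl1 differed by -0.24 at low values, with overlapping groups.

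Among PPAR partners and regulators, 0 of 13 measured genes were called, with 1 higher at an unadjusted p under 0.05. That gene was Meox2, a homeobox factor known with TCF15 from the control of fatty acid transport in heart endothelium, and it read 8.56, 9.26 and 9.49 against 6.43, 5.54 and 5.67, and differed by 3.22 (adjusted p = 0.0683 from limma). Tcf15 itself differed by -0.54 at low values. Cebpb and Cebpa, which encode C/EBP factors, differed by 1.76 and 0.17 with overlapping groups (adjusted p = 0.566 and 0.659 from limma). The same-numbered pairs of Cebpb all differed alike, by 1.95, 1.58 and 1.76 (adjusted p = 0.182 from limma with the replicate block). Rxra, the dimer partner of PPARγ, read 4.27 on all double-positive arrays and 4.60, 4.71 and 4.27 on the CD31+ arrays. The double-positive values were identical (SD 0) and the same as in CD31+ replicate 3, so no level of Rxra is read from them. Its other probe sets lay at the floor of 2.39 on all 6 arrays.

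In the carnitine shuttle and beta oxidation list, 1 of 22 measured genes was called higher and 0 lower. The unadjusted p was under 0.05 for 5 higher, beside 14.4% of all genes, and 1 lower, beside 2.44%, and the median was 0.26. Acadl, the long-chain acyl-CoA dehydrogenase, rose from 5.71, 5.34 and 5.36 in the CD31+ arrays to 7.91, 7.62 and 7.73 in the double-positive arrays. It differed by 2.28 (standard error 0.140), with adjusted p-values from limma of 0.0240 as deposited, 0.109 under the replicate block and 0.00144 for the filter plus centring. Etfdh, which passes electrons from fatty acid oxidation to ubiquinone, differed by 0.76 (adjusted p = 0.0749 from limma) and by 0.08 in centred arrays. Slc25a20, the carnitine-acylcarnitine carrier, differed by 1.30 and Etfa, an electron carrier subunit, by 1.55, and both passed limma with the filter (adjusted p = 0.0214 and 0.00593) but not with centring added (0.137 and 0.0957). Etfa reached 5 among the CD31+ arrays in replicate 3 alone (5.08), so the filter kept it with the help of its double-positive arrays. Among other acyl-CoA synthetases and thioesterases, 0 of 13 measured genes were called over all probe sets, and the unadjusted p was under 0.05 for 3 higher and 1 lower. Acot7, a thioesterase, differed by 1.68 (adjusted p = 0.124 from limma), Acsl3 by 1.63 (0.152), Acot9 by 1.44 (0.227) and Acss1 by -1.88 (0.338). Among other lipases and lipid droplet genes, 0 of 15 measured genes were called and the median was 0.08. The genes with the smallest p, Pnpla8, G0s2, Abhd5 and Abhd6, differed by 0.62, 0.79, 0.63 and 0.47, and the groups of Abhd6 overlapped. Lipa, the lysosomal acid lipase, differed by -0.47 with overlapping groups (adjusted p = 0.659 from limma) and was called lower with the filter and centring (adjusted p = 0.0206).

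Several of these genes are also made by other cells of LN and fat, and the markers of those cells were read beside them. Of 11 adipocyte markers, 8 were measured, all 8 were under 3 on all 6 arrays, and 0 were called. Adipoq read 2.41 to 2.48 and Lep and Cidea lay at the floor, so adipocyte transcripts were at or near the floor in the arrays where Pparg and Fabp4 were bright. Their summed level, on the linear scale, was 43.3 to 44.0 in the double-positive arrays and 43.9 to 45.6 in the CD31+ arrays.

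Of 12 macrophage and monocyte markers 0 were called over all probe sets, and 5 were under 3 on all arrays. Their summed linear level was 225 to 469 in the double-positive arrays and 135 to 158 in the CD31+ arrays, higher in the group in which Pparg and Cd36 were higher. The median difference of the 12 was only -0.01. All double-positive arrays lay above the CD31+ arrays for 2 markers, beside 16.9% of all genes, and below them for 1, beside 3.42%. The largest difference was that of Marco, 4.67, so the sum rests largely on Marco and does not stand for the list. Marco read 8.36, 6.16 and 8.12 against 2.88 on each CD31+ array, while Vsig4 and Cd163 lay at the floor and Csf1r at 2.39 to 3.01. On the other side, the fibroblastic reticular cell list had 8 of 9 markers measured. It summed to 156 to 226 in the double-positive arrays and 235 to 755 in the CD31+ arrays. Of the 8 markers, 5 were lower in all double-positive arrays, beside 3.42% of all genes. Only 1, Thy1, was called higher, beside 1.06%. The pericyte and smooth muscle list (8 of 8 measured, 0 called) summed to 186 to 262 and 141 to 539. Pdgfrb read 7.06, 8.50 and 5.12 in CD31+ replicates 1 to 3 and was highest in replicate 2, as Gpihbp1 was. Replicate 2 was also the highest CD31+ array for Fabp4, Fabp5, Vldlr, Pparg and Cpt1a at their brightest probe sets, so this is not particular to Gpihbp1. The part of macrophage, reticular and pericyte transcripts in these differences was not tested.

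**Figure D4:**
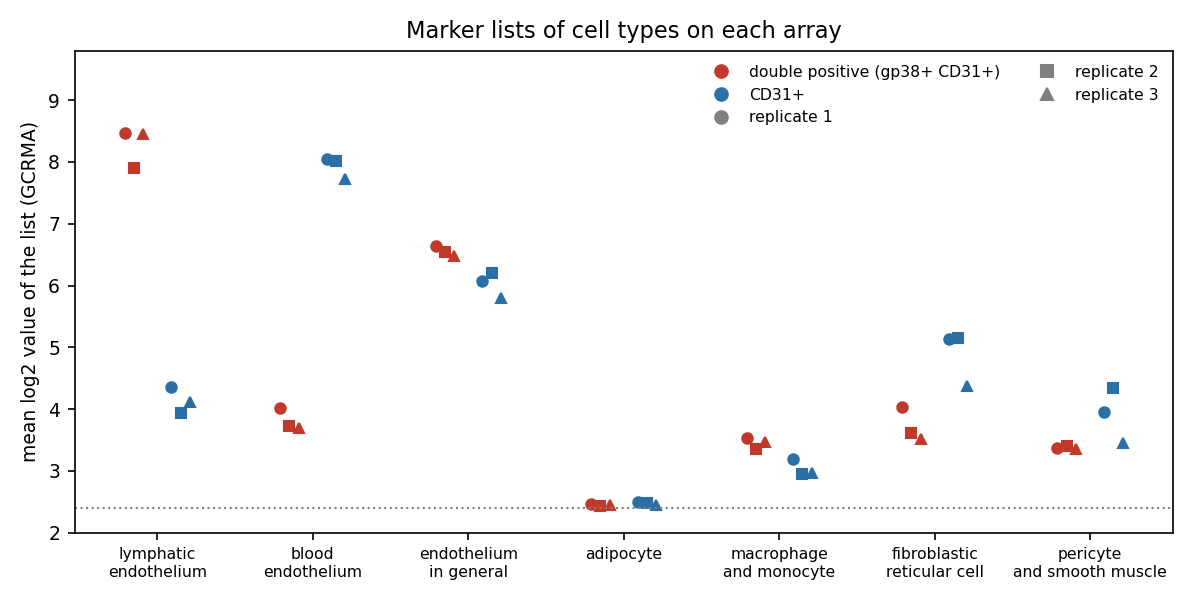
Mean log2 value (y axis) of each cell type marker list on each array, with colour for the group, shape for the replicate number and a dotted line at the floor of 2.39. The lymphatic list reaches 7.90 to 8.47 on double-positive arrays, and the adipocyte list lies near the floor on all 6 arrays.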

How the data were processed

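From each sample of sorted LN cells, 20 ng of RNA was amplified in 2 linear rounds. The authors normalized the Affymetrix arrays with GCRMA, and the deposited values are log2 RNA abundances, 1 per probe set and array. The submitters' processing notes name GCRMA and limma, and versions and the arrays normalized together were not given in the sources used here. Of 45101 deposited probe sets 64 are controls. Among the rest, 34945 have 1 gene in the platform table, 932 several and 9160 none, and 34741 of the 34945 matched RefSeq, which gave current symbols. Of the values, 37.4% of probe sets lie within 0.1 of the floor on all arrays.

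Differences were tested in R 4.3.3 with lmFit and eBayes of limma 3.58.1 on the 45037 other probe sets, with no filter and no block, and Benjamini-Hochberg adjustment over all of them at 5% FDR. The fit had 4 residual degrees of freedom, and its prior degrees of freedom were 0.356 (all probe sets) and 4.92 (filter). A gene was counted in a direction when 1 or more of its probe sets passed, and was described at its brightest probe set by mean. All members were named, and of each other list up to 4 genes with the smallest limma p at their brightest probe set. The members and lists were chosen with earlier results of these data known. Lipa and Tcf15, markers named outside that rule, and the neighbours Pmp2 and Fabp9, were chosen after their values were seen.

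Over the 5764 probe sets whose mean is 5 or more, the residuals of double-positive and CD31+ arrays with the same number had correlations of 0.341, 0.475 and 0.418, against -0.405 to 0.057 for other pairs of arrays. The series text calls the samples paired, so the numbers were taken to pair the arrays. Precision is limited by the number of arrays, and with 3 against 3 the smallest 2-sided p of an exact permutation test is 0.1. Alternatives were the block, the filter, centring, eBayes with trend and robust, array weights, probe sets averaged per gene or chosen by p, each array left out and the cell type word of the labels. Chosen after seeing the data were the filter and centring with the block, and leaving out both arrays that carry number 2. The scripts were tested on simulated data. Plots used Python 3.11.15 and matplotlib 3.10.9.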

Additional observations from a re-analysis of the deposited data

How the results depend on the processing

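No member passed limma at 5% FDR over all probe sets as deposited, with the replicate number as a block, with trend and robust settings, with array weights, with probe sets averaged or without both arrays numbered 2. The numbers of members called higher and lower were 3 and 1 after filtering, 3 and 1 after filtering with the block, 1 and 1 for the filter plus centring, and 1 and 2 with the block added to both, where Cpt1a was the other gene (adjusted p = 0.0318 from limma). Leaving out 1 array gave 0 to 1 higher (Vldlr at a probe set near the floor, without double-positive replicate 3) and 0 to 1 lower (Gpihbp1, without CD31+ replicate 2). The lower calls after filtering include Gpihbp1, which was kept through the group where it is high. The higher calls include Pparg and Vldlr, which were kept only with the help of the group where they are high. Without both arrays numbered 2 Gpihbp1 differed by -2.12 (adjusted p = 0.0515 from limma).

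Over all genes 193 were called higher and 41 lower. These became 4 and 0 with the block, 1518 and 183 after filtering, 2074 and 221 after filtering with the block, 585 and 434 for the filter plus centring, 840 and 684 with the block added to these, 127 higher with trend and robust, 26 and 13 without both arrays numbered 2, 407 and 83 with probe sets averaged, and 36 to 103 and 5 to 61 with 1 array left out. For the 101 other pathway genes, 2 higher and 0 lower became 0 higher with the block, 12 and 1 after filtering, 16 and 2 after filtering with the block, 8 and 3 for the filter plus centring, 10 and 5 with the block added, 0 higher without both arrays numbered 2, 4 and 1 with probe sets averaged, and 1 to 2 and 0 to 2 with 1 array left out. Centring without a filter gave 2 members higher and 7 lower, 15 and 80 pathway genes and 1420 and 15638 genes, since it also shifts the probe sets at the floor.

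Signs turned under centring for Fabp4 (-0.55), Fabp5 (-0.20), Lpl (-0.32) and Cpt1a (-0.52), and without CD31+ replicate 3 for Fabp5, Lipg and Cpt1a, whose differences ranged from -0.21 to 1.00, -0.056 to 0.020 and -0.18 to 0.42 with 1 array left out. Cpt1a was also -0.042 averaged over probe sets and -0.18 at the probe set with the smallest p. Pparg, Acsl5, Vldlr and Gpihbp1 kept their sign under all of these, with Vldlr centred at its brightest probe set. The dim probe sets of Vldlr lay at -0.91 to -0.38 in centred arrays, so centring without a filter counted the gene among the 7 lower. Grouping by the cell type word of the labels turns the sign of every difference by construction. Low signal over background limits Lipg, the dim probe sets and Gpihbp1 in the double-positive arrays.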
